A study of Bos taurus with 4 samples.

Results

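The marker microRNAs of other tissues described here are miR-122 for liver, miR-146b and miR-150 for leukocytes, miR-200c and miR-375 for epithelium, and miR-143 for smooth muscle and stroma. They were chosen by name, after the bracketed note, arm and copy number that the annotation adds to a name were removed, and are 6 of the 484 bovine microRNAs and of the 30919 names of any kind that had reads. The libraries are small RNA sequencing of cattle (Bos taurus) oocytes at the germinal vesicle (GV) stage, at which the oocyte is arrested before it resumes meiosis. The groups were 2 TDRKH IP libraries, made from RNA recovered with an anti-Tdrkh antibody, and 2 input libraries made with no antibody. TDRKH has a tudor domain, through which it binds PIWI proteins, and the question of the design is which small RNAs come down with it. No genotype or treatment is given for either group, animal ages and the number of oocytes pooled are not given, and an IP with a control antibody was not analysed here. Whether replicates came from separate oocyte pools is not stated in the labels, and the p-values therefore reflect a spread between libraries that may be technical.

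The TDRKH IPs held 11138905 and 11060320 listed reads and the inputs 1079364 and 1354003, all of 18 to 36 nt and all with a name. Reads from piRNA clusters, the class of small RNA that marks germ cells, made up 96.9% and 96.8% of the TDRKH IPs and 88.8% and 87.8% of the inputs. Bovine microRNAs made up 0.0603% and 0.0735% of the TDRKH IPs, against 1.77% and 1.82% of the inputs. The chi-square of replicates per degree of freedom was 3.52 for the TDRKH IPs and 2.79 for the inputs, above what counting alone gives.

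MicroRNAs are short RNAs cut from hairpin precursors and carried by Argonaute proteins, which they guide to messenger RNAs through the seed, the bases near their 5′ end. Enzymes that trim or extend the 3′ end give 1 microRNA several length forms, while the 5′ end, which sets the seed, is usually kept. piRNAs are longer, are made without a hairpin and are carried by PIWI proteins, the partners of TDRKH. In mouse and human, miR-122 is the most abundant microRNA of hepatocytes, miR-150 is a microRNA of mature lymphocytes that represses MYB, and miR-146b is induced in inflammation and represses TRAF6 and IRAK1. The same species are the source of the known roles of miR-200c, which represses ZEB1 and ZEB2 in epithelium, of miR-375, known from pancreatic islets and epithelia, and of miR-143, which lies beside miR-145 and marks smooth muscle and fibroblasts.

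The sequences of the 6 microRNAs are shown to identify what was counted and to show their seeds. Each is written 5′ to 3′ in DNA letters as the deposited files list it, with the seed (bases 2 to 8) in capitals. The reference form is the sequence that the annotation lists under the microRNA's name without an arm, or, for miR-375, the most abundant sequence. Where a different form had the most reads in input, it is given as well.
miR-122 reference: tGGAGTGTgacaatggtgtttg
miR-122 most abundant: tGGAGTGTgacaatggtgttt
miR-143 reference: tGAGATGAagcactgtagctcg
miR-143 most abundant: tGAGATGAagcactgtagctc
miR-200c: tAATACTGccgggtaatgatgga
miR-375: tTTGTTCGttcggctcgcgtga
miR-146b: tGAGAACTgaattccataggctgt
miR-146a: tGAGAACTgaattccataggttgt
miR-150 reference: tCTCCCAAcccttgtaccagtgt
miR-150 most abundant: tCTCCCAAcccttgtaccagtg
The 6 microRNAs carry 6 different seeds. miR-146a shares the seed of miR-146b and is printed because its first 20 bases are those of miR-146b. miR-200b shares the seed of miR-200c. Coordinates are not given, since no source used here gives the genome build behind the annotation.

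All 6 marker microRNAs were lower in TDRKH IP than in input, and the libraries of the groups did not overlap for any of them. In edgeR's quasi-likelihood test across the 5392 names tested, all 6 had a Benjamini-Hochberg adjusted p under 0.05. For miR-146b, miR-150, miR-200c and miR-375 the low-count filter all but fixed the lower level in TDRKH IP, since they passed it through the inputs alone. The filter also favoured that direction for miR-143, which reached the filter level in 1 TDRKH IP only. Most names moved the same way: 58% of all names tested, and 85.7% of the 154 other bovine microRNAs tested, were called lower in TDRKH IP (1.95% of these microRNAs were called higher). The direction of the 6 is thus that of most bovine microRNAs that passed the filter. Only 160 of the 484 bovine microRNAs with reads passed it, and the direction of the rest was not tested. In input the 6 ranged from miR-122, rank 11 among bovine microRNAs, to miR-375, rank 138. Levels are in RPM, reads per 1000000 listed reads, group values are mean ± SD (n = 2 each), and the standard error of a log2 change is its size divided by the square root of the F statistic. For a level in input, the number of cells of a type and the RNA per cell cannot be told apart in such bulk libraries. The change between TDRKH IP and input does not compare cell numbers.

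The liver marker miR-122 was the most abundant of the 6. It had 19 and 26 reads in the TDRKH IPs, or 1.71 and 2.35 RPM, against 469 and 453 reads in the inputs, or 435 and 335 RPM. Both inputs were thus far above both TDRKH IPs. The means were 2.03 ± 0.456 RPM in TDRKH IP and 385 ± 70.7 RPM in input, and the log2 change was -7.54 ± 0.19 (SE, adjusted p = 3.11e-08). By pooled reads miR-122 was 187-fold lower in TDRKH IP (95% counting interval 139 to 258). This and all other intervals given here cover counting error only, since reads may include PCR copies.

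The stromal marker miR-143 was second in both groups. The TDRKH IPs held 10 and 20 of its reads (0.898 and 1.81 RPM), and the inputs 91 and 86 (84.3 and 63.5 RPM). It averaged 1.35 ± 0.644 RPM in TDRKH IP and 73.9 ± 14.7 RPM in input, a log2 change of -5.74 ± 0.31 (adjusted p = 2.33e-06). The groups stood far apart, although TDRKH IP 2 held more miR-143 than TDRKH IP 1.

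Of the epithelial markers, miR-200c was at 0.449 and 0.181 RPM in the TDRKH IPs (5 and 2 reads), against 53.7 and 52.4 RPM in the inputs (58 and 71 reads). The inputs were nearly equal, and the log2 change was -7.31 ± 0.34 (adjusted p = 1.16e-06). The other epithelial marker, miR-375, was the scarcest of the 6 in input. It had 2 reads in TDRKH IP 1 and 0 in TDRKH IP 2, against 5 and 9 reads in the inputs, or 4.63 and 6.65 RPM. By pooled reads it was 63.9-fold lower in TDRKH IP, with a counting interval of 14.7 to 579, and the log2 change was -5.70 ± 0.84 (adjusted p = 0.000483). This call was lost without input 1 (adjusted p = 0.0514), without input 2 (adjusted p = 0.0811) and with no filter on low counts (adjusted p = 0.0786).

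Of the leukocyte markers, miR-146b was at 0.628 and 0.362 RPM in the TDRKH IPs (7 and 4 reads) and at 45.4 and 39.1 RPM in the inputs (49 and 53 reads). It averaged 0.495 ± 0.189 RPM in TDRKH IP and 42.3 ± 4.42 RPM in input, a log2 change of -6.35 ± 0.33 (adjusted p = 2.16e-06). The lymphocyte microRNA miR-150 had no read in either TDRKH IP. The inputs held 11 and 14 of its reads, or 10.2 and 10.3 RPM, which again lay close together. Against a floor of 3 reads over the TDRKH IPs, which corresponds to 0.135 RPM, miR-150 was at least 76.0-fold lower in TDRKH IP (adjusted p = 8.60e-05).

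**Figure D1:**
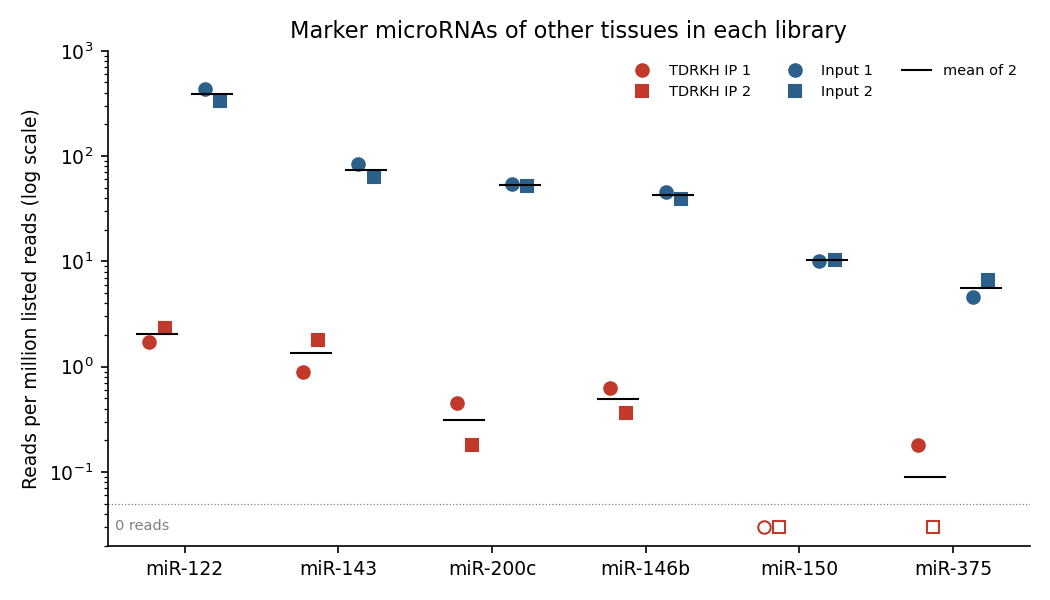
Level of each marker microRNA in each library, in reads per 1000000 listed reads on a log scale, for the TDRKH IPs and the inputs. Points are libraries, bars are means of 2, and open symbols stand for libraries with 0 reads; every input lies above every TDRKH IP, with miR-122 highest in input at 435 and 335 RPM.

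The depth sets what each level can show. The low-count filter amounted to about 1.61 RPM in at least 2 libraries, and in TDRKH IP only miR-122, in both libraries, and miR-143, in 1 library, reached that level. The remaining 4 markers passed through the inputs alone, so a marker with as little RNA in both groups as they had in TDRKH IP would not have been tested. The direction of these 4 calls was thus all but fixed by the filter, and their changes are given as a description. Since miR-143 reached the level in 1 TDRKH IP only, it too needed an input to pass. The filter therefore also favoured its lower level in TDRKH IP. Over both inputs, 3 reads correspond to 1.23 RPM.

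The order of the levels was the same in both inputs and partly lost in TDRKH IP. In input it was miR-122, miR-143, miR-200c, miR-146b, miR-150 and miR-375, and the libraries of each neighbouring pair did not overlap. Some neighbours had close counts there: 58 and 71 reads of miR-200c against 49 and 53 of miR-146b, and 11 and 14 of miR-150 against 5 and 9 of miR-375. The order was not tested. In TDRKH IP miR-122 and miR-143 overlapped, as did miR-146b and miR-200c, and miR-375 and miR-150. TDRKH IP 2 held as many as 1.81 RPM of miR-143, against 1.71 RPM of miR-122 in TDRKH IP 1. miR-122 made up 44.2% and 50.0% of the reads of the 6 in the TDRKH IPs, against 68.7% and 66.0% in the inputs. All these levels are of mature RNAs of nearly the same length, so they were not corrected for length.

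Because microRNAs as a class took a smaller share of the TDRKH IPs, the 6 were also set against bovine microRNA reads alone. The make-up of these reads differed between the groups. In them miR-10161 was at 112 and 135 RPM in the TDRKH IPs and 104 and 98.2 RPM in the inputs, while most other bovine microRNAs tested were called lower. A share of these reads thus also depends on such names. The 6 made up 0.641% and 0.640% of the bovine microRNA reads of the TDRKH IPs, against 3.57% and 2.79% of those of the inputs. The shares of the TDRKH IPs were nearly equal and both lay under those of the inputs (exact permutation test, two-sided, p = 0.33, the smallest that 2 against 2 libraries can give). With bovine microRNA reads as library size, the log2 change was -2.82 ± 0.32 for miR-122 (adjusted p = 5.28e-18), -2.62 ± 0.52 for miR-200c (adjusted p = 8.63e-07) and -1.65 ± 0.48 for miR-146b (adjusted p = 0.00104). It was -1.03 ± 0.38 for miR-143 (adjusted p = 0.0101), and miR-150, with no reads in TDRKH IP, also passed (adjusted p = 0.000809). miR-375 did not pass, at -1.18 ± 1.03 (adjusted p = 0.30). On this scale miR-122 had a smaller change and a larger standard error than with listed reads, yet a smaller adjusted p. The p-values of the 2 scales are therefore not comparable, and those with bovine microRNA reads may understate the spread between libraries.

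On that scale 5 of the 6 were called lower, beside 48.1% of the other 154 bovine microRNAs, while 18.2% of these were called higher. The median log2 change was -2.13 for the 6 and -0.93 for the others. With listed reads as library size it was -6.83 for the 6 and -5.64 for the others, or -6.30 and -5.61 where microRNAs without reads in a group were set to their 3-read bound. Over all names it was -2.40. No test of the 6 against the others was made, since the 6 were picked by name with results of these data known.

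**Figure D2:**
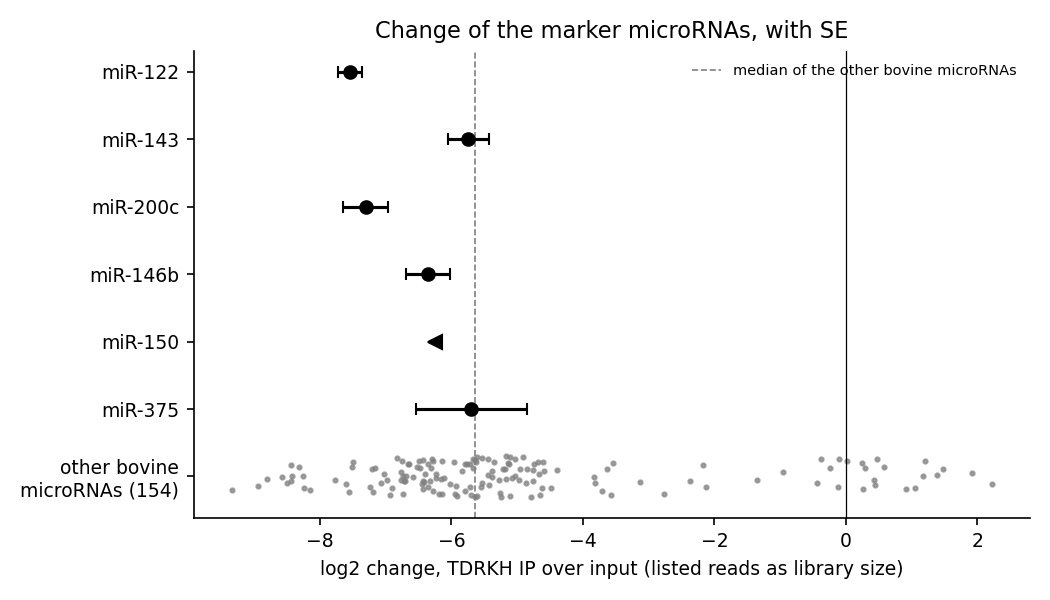
Log2 change of TDRKH IP over input for the marker microRNAs, with standard errors, and for the 154 other bovine microRNAs tested, one point each (fitted values, including those without reads in a group). The dashed line is the median of the others, -5.64; miR-122 and miR-200c lie to its left at -7.54 and -7.31, miR-143 lies close to it at -5.74, and miR-150, without reads in TDRKH IP, is drawn at its bound of -6.25.

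The bovine microRNAs with the most similar levels over the 4 libraries, by Euclidean distance of log2(RPM + 1), were of many kinds. For miR-122 they were miR-10b (distance 1.06), at 3.32 and 4.07 RPM in the TDRKH IPs and 410 and 492 RPM in the inputs, and miR-2904 (1.09). These distances were larger than those of the nearest microRNAs of any other of the 6. For miR-143 the nearest were miR-22 (0.49) and miR-3432a (0.55), for miR-200c miR-652 (0.47) and miR-93 (0.64), and for miR-146b miR-30f (0.52) and miR-30c (0.56). For miR-150 they were miR-2419 (0.23) and miR-507b (0.31), which were likewise without reads in TDRKH IP, and for miR-375 miR-106b (0.38) and miR-500 (0.48).

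Partners of the markers were scarce. In the RefSeq annotation of assembly ARS-UCD2.0, miR-141 is next to miR-200c and miR-145 is next to miR-143, and in mouse and human each pair comes from a shared transcript. miR-141 had 0 reads in both TDRKH IPs and 4 and 9 in the inputs, against 58 and 71 for miR-200c. miR-145 had 1 and 0 reads in the TDRKH IPs and 3 and 1 in the inputs, against 91 and 86 for miR-143. Both neighbours were thus far below their partners, though they did not pass the filter and were not tested. Of the close relatives of miR-200c, miR-200b had reads in input 2 alone (6 reads) and miR-429 had none.

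Many other markers of the same tissues, taken from lists, were at or near 0. Since 85.7% of the other bovine microRNAs tested were called lower in TDRKH IP, and most listed markers reached the filter through the inputs alone, a fall of the tested markers of a list is not particular to that list. Of 4 liver markers, 3 had reads and 2 passed the filter, and both fell: miR-122 and miR-194, with 1 and 2 reads in the TDRKH IPs and 19 and 22 in the inputs (log2 change -6.76). miR-192, which shares a transcript with miR-194 in human, had 2 reads in input 2 and none elsewhere, and miR-885 had none. The liver list summed to 1.80 and 2.53 RPM in the TDRKH IPs and 452 and 352 RPM in the inputs, nearly all of it miR-122. Of 6 leukocyte markers, 3 passed and all 3 fell. They were miR-146b, miR-150 and miR-342, which had 8 and 8 reads in the TDRKH IPs and 105 and 109 in the inputs (log2 change -6.90). The remaining markers of this list were near the floor: miR-142 had 6 reads in input 1 and 0 in the other libraries, and miR-155 and miR-223 had 0 reads throughout. The leukocyte list ranged from 1.08 to 1.35 RPM in the TDRKH IPs and from 130 to 158 RPM in the inputs.

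Of 8 epithelial markers, 6 had reads, and miR-200c and miR-375 passed and fell. The list summed to 0.718 and 0.271 RPM in the TDRKH IPs and 64.9 and 80.5 RPM in the inputs, and miR-203 had no reads. Of 7 markers of smooth muscle and stroma, miR-143 and miR-1 passed, and miR-143 fell. The muscle microRNA miR-1 had 14 and 21 reads in the TDRKH IPs and 0 and 10 in the inputs and did not pass the test (log2 change -1.35 ± 0.89, adjusted p = 0.203). With bovine microRNA reads as library size it was called higher in TDRKH IP (log2 change 3.34 ± 0.55, adjusted p = 2.50e-09). miR-133a and miR-133b, which are expressed with miR-1 in muscle, had no reads. That list summed to 2.33 and 3.8 RPM in the TDRKH IPs and 87.1 and 79.0 RPM in the inputs. All 3 erythroid markers (miR-451, miR-144 and miR-486) were at 0 in every library, and the endothelial marker miR-126 had 1 read in TDRKH IP 1 and 1 in input 2.

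Markers of cumulus and granulosa cells, the somatic cells around the oocyte, were also lower in TDRKH IP. Of 5 listed, miR-21, miR-503, miR-424 and miR-132 passed the filter and all 4 fell, beside the 85.7% of other bovine microRNAs tested that were called lower, and miR-212 was at 0. miR-21 had 11 and 25 reads in the TDRKH IPs and 215 and 307 in the inputs, or 199 and 227 RPM (log2 change -7.02). The list summed to 1.26 and 2.71 RPM in the TDRKH IPs and 236 and 283 RPM in the inputs. The part of these cells in the levels of the 6 markers was not tested.

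The 3′ ends of the marker microRNAs varied, and the forms of miR-122 are shown because it alone had enough reads in both groups. Capitals mark the bases beyond the 20 that all these forms share. Not printed are a 21-nt form that ends in A (4 and 3 reads in the inputs) and a 22-nt form that ends in TA (5 and 3). Neither had reads in the TDRKH IPs.
20 nt: tggagtgtgacaatggtgtt
21 nt, most abundant: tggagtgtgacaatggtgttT
22 nt, reference: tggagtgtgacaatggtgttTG
23 nt, with A: tggagtgtgacaatggtgttTGA
23 nt, with T: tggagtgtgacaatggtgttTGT
24 nt, with AA: tggagtgtgacaatggtgttTGAA
The 21-nt form led in every library, with 9 and 13 reads in the TDRKH IPs and 166 and 143 in the inputs. The reference form had 2 and 3 reads in the TDRKH IPs and 39 and 67 in the inputs. The form with an added A had 2 and 5 reads in the TDRKH IPs and 29 and 45 in the inputs. The reference thus exceeded the form with A in both inputs but in neither TDRKH IP, where these counts are of 5 reads or fewer. The form with an added T had 3 and 1 reads in the TDRKH IPs and 10 and 10 in the inputs. Here and below, added means only beyond the reference form. Whether such bases come from the hairpin precursor or were attached later could not be told, since no precursor sequence was used.

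Among miR-122 reads without a mismatch note, forms shorter than the reference made up 52.6% and 53.8% in the TDRKH IPs (10 of 19 and 14 of 26) and 62.1% and 51.3% in the inputs. The groups overlapped. The reference with added bases made up 26.3% (Wilson 95% interval 11.8 to 48.8) and 30.8% (16.5 to 50.0) in the TDRKH IPs, and 15.0% (11.4 to 19.6) and 18.9% (14.9 to 23.5) in the inputs. The values of both TDRKH IPs were higher than those of both inputs, but they rest on 5 of 19 and 8 of 26 reads. The intervals of the groups overlap, and the difference was not tested.

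Counted as single sequences, 4 forms of miR-122 and 1 each of miR-143, miR-146b and miR-200c reached 10 RPM in 2 libraries. All 7 did so through the inputs alone, so the filter all but fixed that they were lower in TDRKH IP, and their changes are given as a description. The log2 change was -7.00 ± 0.39 for the 21-nt form of miR-122, -7.46 ± 0.51 for the reference, -6.49 ± 0.49 for the form with A and -6.90 ± 0.48 for the 20-nt form. It was -5.30 ± 0.45 for the leading form of miR-143, -6.20 ± 0.50 for that of miR-146b and -7.51 ± 0.55 for that of miR-200c. Of all 11786 sequences at that level, 19.9% were called lower and 41.9% higher in TDRKH IP, and nothing about the 7 is read from these shares.

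miR-143 was likewise found mostly in forms other than its reference, as the following ends show, with the bases beyond the first 20 in capitals.
20 nt: tgagatgaagcactgtagct
21 nt, most abundant: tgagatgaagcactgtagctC
22 nt, with A: tgagatgaagcactgtagctCA
22 nt, with T: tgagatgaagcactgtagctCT
The 21-nt form had 3 and 8 reads in the TDRKH IPs and 25 and 24 in the inputs, while the 22-nt reference had 0 in both TDRKH IPs and 2 in each input. The 22-nt form that ends in T in place of the last base of the reference had 3 and 5 reads in the TDRKH IPs and 17 and 8 in the inputs. It was thus more frequent than the reference itself in every library.

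For miR-200c and miR-146b the reference form led in the inputs. miR-200c had 2 and 0 reads of it in the TDRKH IPs and 20 and 29 in the inputs, and its form with 1 further A had 3 and 0 reads in the TDRKH IPs and 10 and 15 in the inputs. miR-146b had 5 and 2 reads of its 24-nt reference in the TDRKH IPs and 34 and 25 in the inputs. Some reads named miR-146b equal the start of miR-146a. There were 1 and 1 of these in the TDRKH IPs and 10 and 5 in the inputs, and all but the read of TDRKH IP 2 reach bases that differ from miR-146b. Without them the log2 change of miR-146b was -6.25 (adjusted p = 2.32e-06, left out after the data were seen).

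**Figure D3:**
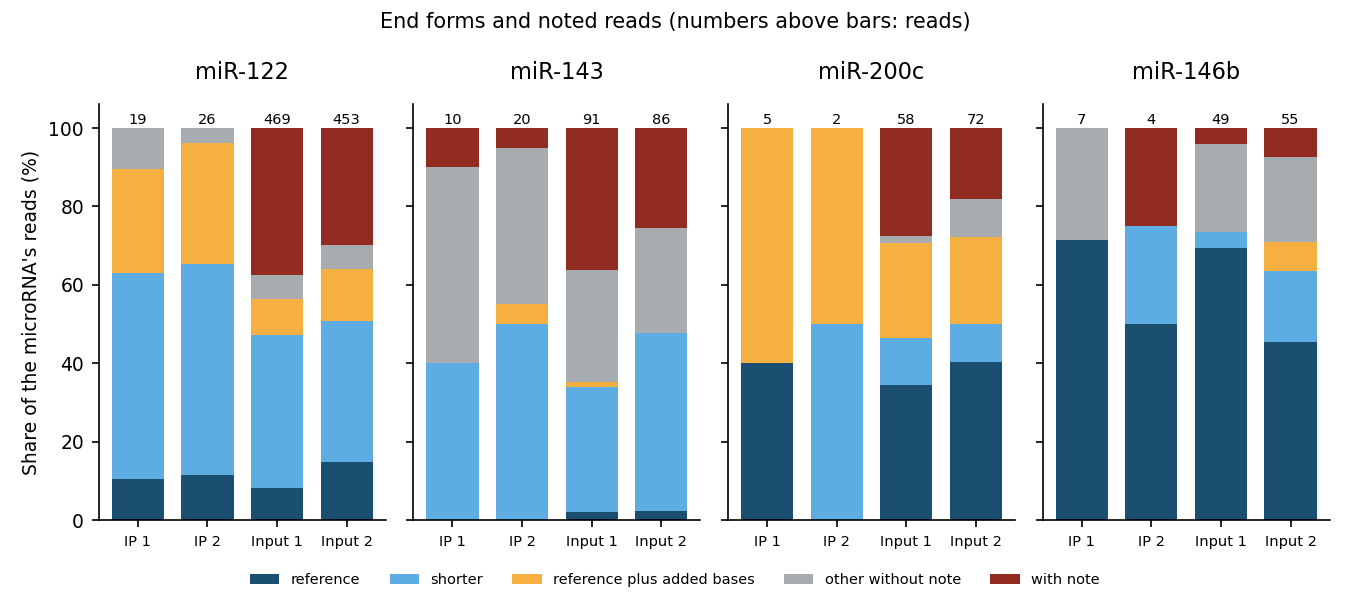
End forms of 4 marker microRNAs (miR-122, miR-143, miR-200c and miR-146b) in each library, as a share of the microRNA's reads in percent, TDRKH IPs left and inputs right, with the number of reads above each bar. The 45 miR-122 reads of the TDRKH IPs hold no read with a mismatch note, while 37.5% and 29.8% of those of the inputs do.

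By length the marker reads were those of mature microRNAs in both groups. Their mean length was 22.1 and 21.7 nt in the TDRKH IPs and 21.7 and 21.8 nt in the inputs, a difference of 0.107 nt (exact permutation test, two-sided, p = 1). Reads of 20 to 24 nt made up 100% (43 of 43) and 94.2% (49 of 52) in the TDRKH IPs, and 99.1% and 96.5% in the inputs. The groups overlapped on both measures. The most common length was 21 nt for miR-122, 24 nt for miR-146b and 22 nt for miR-375 in each library with reads.

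Taken as a pool, the other bovine microRNAs had a different length profile in TDRKH IP. Reads of 20 to 24 nt made up 58.1% and 59.7% of theirs in the TDRKH IPs and 91.5% and 91.2% in the inputs. Reads of 25 nt or longer, the range in which piRNA reads were most frequent, made up 23.1% and 22.9% of theirs in the TDRKH IPs and 4.23% and 4.78% in the inputs. The 6 markers together had 0 and 2 such reads in the TDRKH IPs and 2 and 6 in the inputs. The groups did not overlap for the other microRNAs, and the markers' share of 20 to 24 nt lay above that of the others in all 4 libraries. The others are a pool weighted by reads, and its make-up differed between the groups. In it, miR-10161 was at 112 and 135 RPM in the TDRKH IPs and 104 and 98.2 RPM in the inputs. Its let-7a was at 21.2 and 33.3 RPM in the TDRKH IPs and 1543.5 and 1427.6 RPM in the inputs. Lengths of single other microRNAs were not compared, so a trait particular to the 6 is not shown.

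**Figure D4:**
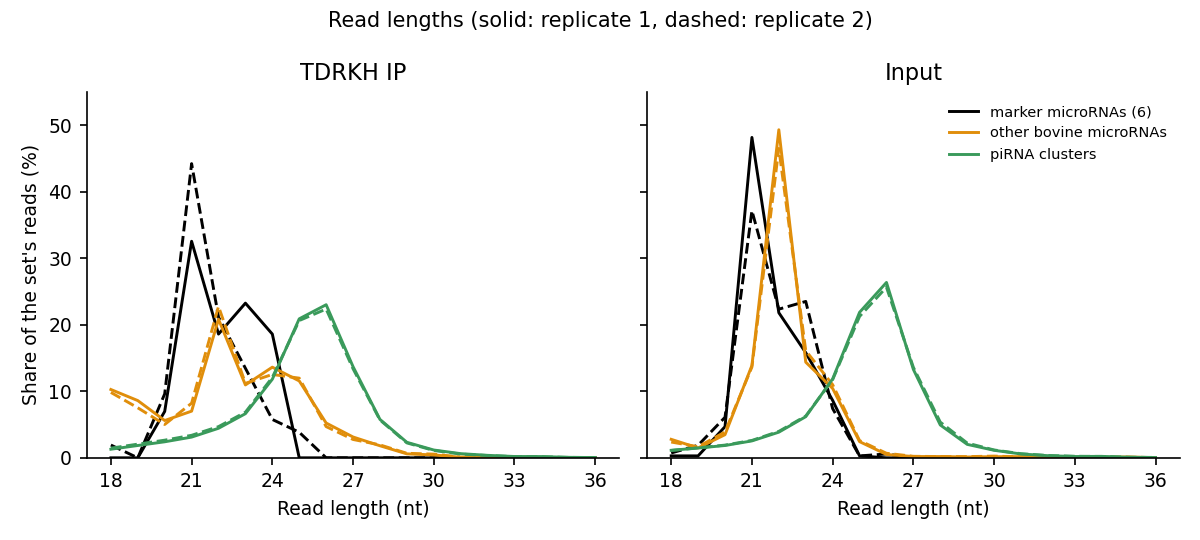
Read length in nt against the share of each set's reads in percent, for the 6 marker microRNAs, the other bovine microRNAs and piRNA clusters, TDRKH IP left and input right, with 1 line for each library. The marker reads keep a peak at 21 nt in both groups, and piRNA reads peak at 26 nt. The other microRNAs, taken as a pool, spread to shorter and longer reads in TDRKH IP.

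The 5′ ends were largely fixed. Of the marker reads, 95.3% and 92.3% in the TDRKH IPs and 98.0% and 96.8% in the inputs began at the first base of the mature sequence, so most carried the seed printed above. Both TDRKH IPs lay below both inputs, with a mean difference of -3.55 percentage points (exact permutation test, two-sided, p = 0.33). That share rests on 43 and 52 reads in the TDRKH IPs.

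Marker reads with a mismatch note, that is, with bases that differ from the annotated microRNA, were a smaller share of the summed marker reads in TDRKH IP than in input. They made up 2.33% and 3.85% of the marker reads in the TDRKH IPs, against 34.1% and 25.7% in the inputs, and the groups did not overlap (exact permutation test, two-sided, p = 0.33). This measure was chosen after its values were seen. For miR-122 the counts were 0 of 19 and 0 of 26 reads in the TDRKH IPs (upper Wilson bounds 16.8% and 12.9%), against 37.5% (33.3 to 42.0) and 29.8% (25.8 to 34.2) in the inputs. The intervals of the groups did not overlap. For miR-143 it was 10% and 5% in the TDRKH IPs, against 36.3% and 25.6% in the inputs. miR-200c had 0 of 5 and 0 of 2 noted reads in the TDRKH IPs, against 16 of 58 and 13 of 72 in the inputs. The pattern was not one of every marker: miR-146b had 0 of 7 and 1 of 4 in the TDRKH IPs, against 2 of 49 and 4 of 55 in the inputs. miR-375 had 0 of 2 in TDRKH IP 1, against 2 of 5 and 0 of 9 in the inputs. miR-150 had 4 of 11 and 3 of 14 in the inputs and no reads in TDRKH IP.

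The other classes did not move alike on this measure. Noted reads of the other bovine microRNAs, taken as a pool, made up 60.4% and 59.3% in the TDRKH IPs and 47.8% and 41.7% in the inputs, the opposite direction. The make-up of that pool differed between the groups, as described for the read lengths, and single other microRNAs were not compared. Those of piRNA clusters made up 26.0% and 26.2% in the TDRKH IPs and 48.7% and 41.2% in the inputs, the same direction as the summed markers. In the inputs the differences of the noted miR-122 reads were spread along the read, and T-to-C changes were the most frequent (49 and 37 reads), followed by A-to-G changes (34 and 28). With noted sequences left out of all names, the log2 change of miR-122 was -6.95, so the level difference did not rest on them.

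**Figure D5:**
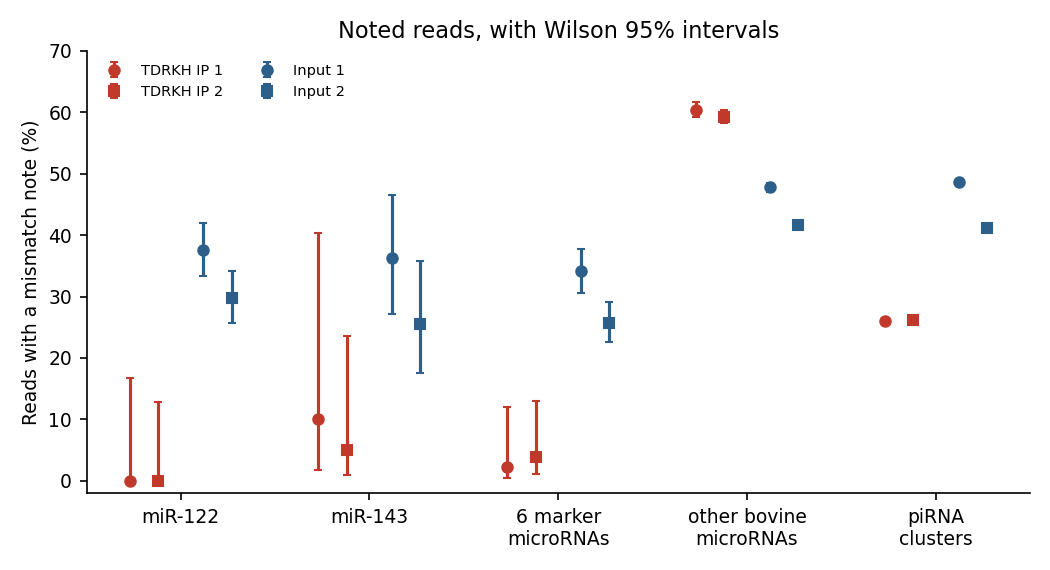
Share of reads with a mismatch note in percent, with Wilson 95% intervals, for miR-122, miR-143, the 6 marker microRNAs together, the other bovine microRNAs and piRNA clusters, TDRKH IPs left of inputs in each set. The summed markers and piRNA clusters are lower in TDRKH IP, at 2.33% and 3.85% for the markers. The other bovine microRNAs, taken as a pool, are higher, at 60.4% and 59.3%.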

How the data were processed

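The read counts were deposited by the authors as 1 list per library of distinct sequences with their counts and the names given by the unitas annotation tool, per the file headers. TRIZOL extraction, single-end sequencing and the NEXTflex Small RNA-Seq Kit V3 are recorded per the labels' protocols. Annotation settings and the genome build: not given in the sources used here. Listed totals exclude reads without annotation.

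Names were merged over note, arm and copy number, because arm names were also given to end variants of a mature sequence. Where a sequence had several names, each took an equal part of its reads, and sums were rounded. Forms and lengths count such reads whole. The quasi-likelihood test of edgeR 4.0.16 (R 4.3.3) was run for TDRKH IP against input after filterByExpr, with listed reads as library size and Benjamini-Hochberg adjustment over all names tested, and over all sequences with at least 10 RPM in 2 libraries. Shares and mean lengths used exact permutation tests. The edgeR tests were tried on simulated data with a dispersion of 0.02. For names they recovered 4 of 59 changes of 1.5-fold, 15 of 74 of 2-fold and 50 of 67 of 4-fold, with 4 false calls. For sequences they recovered 4 of 74, 24 of 64 and 62 of 62, with 2 false calls. A name or sequence that was not called may thus still have changed. Other steps used Python 3.11.15, pandas 2.3.3 and scipy 1.17.1.

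The 6 microRNAs and the marker lists were chosen with earlier results of these data known. Named were all 6, the 2 nearest other microRNAs of each, their genome and seed partners, and up to 4 measured members of each list. List members named for having few or no reads were picked after their values were seen. Alternatives were other library sizes (TMM, DESeq2 1.42.0, microRNA or piRNA reads), other filters and ways of counting names, a replicate block, and leaving out each library. Added after the data were seen were leaving out miR-122, reads like miR-146a, and the alternatives for noted reads.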

Additional observations from a re-analysis of the deposited data

How the results depend on the processing

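The calls of miR-122, miR-146b, miR-150, miR-200c and miR-143 kept their direction under every alternative that gave a value (15 to 17 each), and their threshold wherever no library was left out. Apart from the setting with no filter, the alternatives kept a low-count filter. It all but fixed the direction of miR-146b, miR-150 and miR-200c and favoured that of miR-143, so this agreement says little about their direction. The log2 change of miR-122 ranged from -7.79 to -2.82, the value nearest 0 being that with bovine microRNA reads as library size. Against -5.70, miR-375 was at -1.18 with microRNA reads (adjusted p = 0.30), at -5.70 with no filter (adjusted p = 0.0786) and between -7.69 and -4.79 when each library was left out. It had no value with at least 10 RPM, names exactly as listed, noted sequences left out or distinct sequences, nor miR-150 with distinct sequences.

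Of all names 4026 changed, against 2140 with no filter, 1845 with at least 10 RPM, 2644 with each distinct sequence counted once and 2594 to 3786 when a library was left out (2829 without input 1, 2594 without input 2). Fewer names were tested under the filter and with distinct sequences. The median log2 change of all names shifted by 1.30 with TMM factors, 2.09 with DESeq2, 4.68 with microRNA reads and -0.13 with piRNA reads. The calls split into 896 higher and 3130 lower names with listed reads, 1824 and 2525 with TMM factors, 1819 and 1303 with DESeq2, and 3302 and 475 with microRNA reads.

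The difference in mean read length, 0.107 nt, turned to -0.0225 as a mean over the 6 and to -0.33 without miR-122, and lay between -0.14 and 0.35 when a library was left out. The labels do not say that replicate numbers pair the libraries. The differences between replicates 1 and 2 of the groups correlated at r = 0.0230 over 5392 names and 0.139 over the 160 bovine microRNAs. With the replicate number as a block, 3948 names changed and the same direction and call held for all 6 markers. Depth limits the forms in TDRKH IP, where the 6 had 43 and 52 reads.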

Other observations

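Names that give the same 6 microRNAs for another species were not counted with them. Such names had 19 and 21 reads in the TDRKH IPs (1.71 and 1.90 RPM), against 15 and 18 reads in the inputs (13.9 and 13.3 RPM). None of their sequences also carried a bovine name of the 6. Reads of 18 nt, the shortest listed, made up 14 and 19 of these reads in the TDRKH IPs and 7 and 13 in the inputs.

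The 6 markers had 19 and 21 distinct sequences among their 43 and 52 reads in the TDRKH IPs, and 190 and 182 among 683 and 689 reads in the inputs. Of these sequences, miR-122 had 7 and 8 in the TDRKH IPs and 113 and 107 in the inputs. The number of distinct sequences rises with the number of reads, so no difference in variety is read from it.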
